A study of Mus musculus with 2 samples.

Results

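The cells described here carry transcripts that mark nonclassical monocytes, the patrolling class of blood monocyte, and come from a single-cell RNA-seq library of the mouse thymus. They were chosen by their own counts. In the 2021 library, 3188 of 3214 barcodes were kept, each with at least 500 UMIs (tags that count each captured transcript molecule once), at least 300 detected genes and at most 10% mitochondrial UMIs. A kept cell was a member if its UMIs of Ace, Treml4 and Adgre4 summed to at least 2, its UMIs of C1qa, C1qb and C1qc summed to under 3, and it held no UMI of Cd3d, Cd3e or Cd3g. This gave 129 members, 4.05% of kept cells (95% exact binomial interval 3.39% to 4.79%). The other 3059 kept cells were the reference. Because Ace, Treml4, Adgre4, the C1q genes and the Cd3 genes made the choice, their levels are descriptions only.

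Monocytes leave the bone marrow as Ly6C-high classical cells, and part of them convert in the circulation to Ly6C-low nonclassical cells. Nonclassical monocytes crawl along the inner face of small vessels by means of the integrin LFA-1 and the fractalkine receptor CX3CR1, take up debris and immune complexes, and respond to nucleic acids through TLR7. The nuclear receptor NR4A1 is required for them to form in the mouse, and C/EBPβ supports their survival. Ace encodes angiotensin-converting enzyme, Treml4 a receptor of the TREM family that marks this class in mouse blood and spleen, and Adgre4 an adhesion receptor related to F4/80.

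The study sorted CD64-positive cells from the enzymatically dispersed thymus of adult C57BL/6 mice, and the labels call the cell type macrophage. All samples form 1 group without treatment or genotype contrast, and the labels do not say how many mice were pooled. Its 2 libraries were dated 2021 and 2024 and were made with the 10x Genomics 3′ chemistry. The 2021 library held 8534578 UMIs (median 2157.5 per barcode) and the 2024 library 24569270 UMIs over 2815 barcodes (median 5312). Gene names were used for the 2021 library only, so every level below comes from 1 library, there is no replicate check and no p-value, and barcodes shared between the libraries were not counted. Members were somewhat shallower than the other kept cells, with a median of 1860 UMIs (range 504 to 11303) and 864 detected genes against 2213 UMIs and 896 genes. Median mitochondrial shares were 0.749% and 0.789%.

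Levels are given as CPM, the UMIs of a gene per 1000000 UMIs summed over the cells of a group, with exact Poisson intervals at the 95% level. A ratio is the quotient of 2 such levels with its exact interval. Intervals cover counting error in this library only, not the spread between mice or libraries. A gene was called higher or lower when its log2 ratio, with 10 CPM added to both levels, was at least 1 in size, and it was tested for this with at least 10 UMIs in all kept cells. Genes are compared with themselves across cells, never with each other, since a 3′ count does not give levels on a common scale between genes.

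Every member held at least 2 UMIs of the 3 gating genes by the rule of the gate, so their spread over the members is a description only. Ace (ENSMUSG00000020681) had UMIs in 98 members, Adgre4 (ENSMUSG00000032915) in 90 and Treml4 (ENSMUSG00000051682) in 66. Ace stood at 551 CPM in members and 12.6 CPM in the other kept cells, Adgre4 at 530 and 20.4 CPM, and Treml4 at 334 and 11.7 CPM. Members held 59.8% of all Ace UMIs of the kept cells, 49.5% of the Treml4 UMIs and 47.0% of the Adgre4 UMIs. All 3 genes were seen in 25 members, a pair of them in 75 and a single gene in 29, of which 14 had Ace alone, 13 Adgre4 alone and 2 Treml4 alone. The gate sum had a median of 3 and a highest value of 8. No C1q UMI was seen in 115 members, and 14 had 1 or 2.

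Shares of cells with a UMI depend on depth, so each cell was also thinned at random to 1000 UMIs, which left 116 of 129 members. Ace was then seen in 48.3% of members (38.9% to 57.7%), against 76.0% unthinned. Neutrophils, which should lack these genes, serve as the background of free RNA in droplets. In 464 cells with at least 20 UMIs of S100a8 and S100a9 (median 1846 UMIs), Ace was seen in 0.647% unthinned and in 0 of 365 thinned cells, which allows a share of up to 0.822%. Treml4 was seen in 30.2% of thinned members and 0.822% of thinned neutrophils, and Adgre4 in 49.1% of thinned members and 0 of 365 thinned neutrophils. Members were chosen to hold at least 2 UMIs of the gating genes. The neutrophils are non-members that met the C1q and Cd3 limits, so by construction they held under 2. The gap between these shares is thus set by the choice of cells and does not measure signal over free RNA.

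The threshold of the gate cuts a range. Just outside it lay 154 cells with a gate sum of 1 that met the C1q and Cd3 limits, and just inside it 58 members with a sum of 2. A further 49 members had a sum of 3 or 4 and 22 a sum of 5 or more. Cebpb stood at 544.5 CPM in the 2110 cells with a sum of 0, at 2053 CPM just outside the gate and at 3446 CPM just inside it, then at 2808 and 3454 CPM at the higher sums. Gngt2, which encodes a G protein gamma subunit, stood at 231, 1101, 2201, 2165 and 2822 CPM along the same steps, and Nr4a1 at 114, 428, 848, 904 and 779 CPM. Itgal, the alpha chain of LFA-1, stood at 89.5, 349, 704, 684 and 1222 CPM. For these 4 genes cells with a sum of 1 lay between those with a sum of 0 and the members. Nr4a1 stayed within 779 to 904 CPM among members, Gngt2 and Itgal were highest at a sum of 5 or more, and Cebpb had its lowest member value at a sum of 3 or 4. Ly6c2, the Ly6C antigen gene of classical monocytes, went the other way at the gate, with 651 and 909 CPM outside and 244, 317 and 337 CPM inside.

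**Figure D1:**
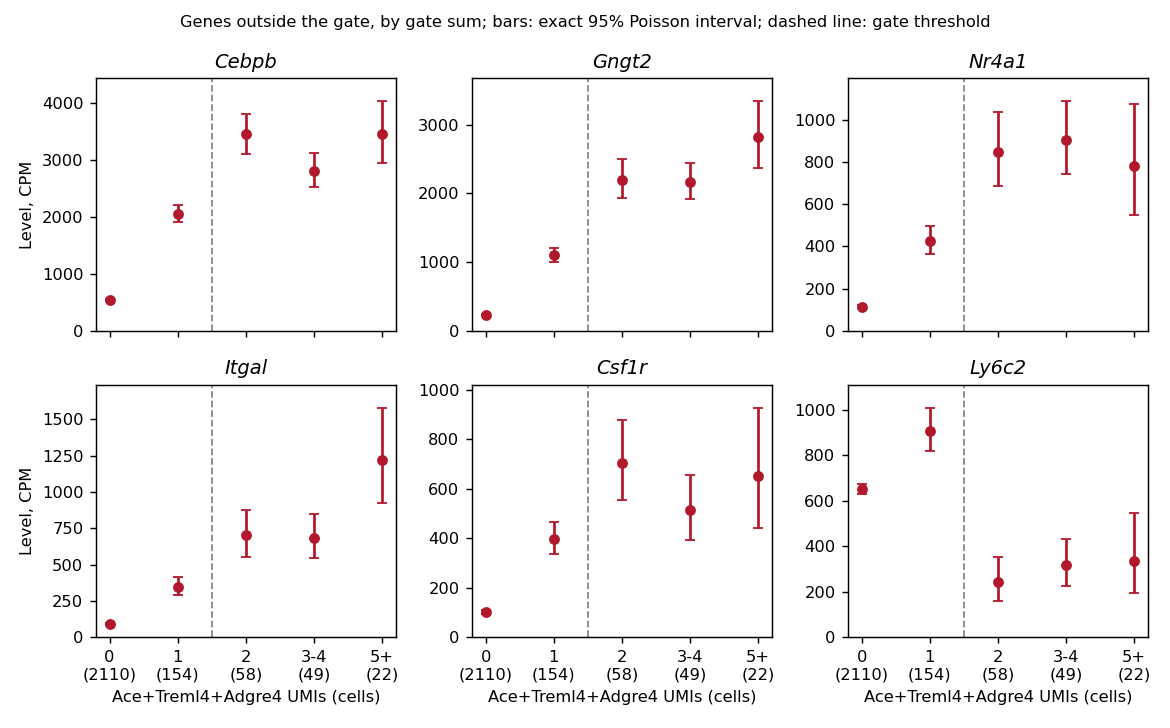
Levels in CPM (vertical axis, from 0) of 6 genes that the gate did not use, by the summed UMIs of Ace, Treml4 and Adgre4 in a cell (horizontal axis), with exact 95% Poisson intervals. Cells with a sum of 0 or 1 lie outside the gate and those with 2 or more are members. Cebpb, Gngt2, Nr4a1 and Itgal are higher from a sum of 2 on, and Ly6c2 is lower, at 244 to 337 CPM inside the gate.

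The label was checked on 15 further genes known for nonclassical monocytes. Against all other kept cells 14 of the 15 were called higher and none lower, with a median log2 ratio of 2.13, whereas 2.91% of the 11711 genes tested were called higher and 5.11% lower, with a median of -0.12. Because the genes were listed as known markers of the class and with earlier results of these data in view, the count describes the members and supports nothing further. The summed level of the list was 9826 CPM in members (9463 to 10200 CPM) and 2144 CPM in the other cells. The 14 were Apoc2, Cebpb, Cx3cr1, Nr4a1, Spn, Fcgr4, Cd300e, Itgal, Ear2, Eno3, Gngt2, Hes1, Stap1 and Dusp16. The exception was Pglyrp1, a peptidoglycan recognition protein also abundant in neutrophils, at 665 CPM in members, 490 in the other cells and 2792 in the neutrophil gate. Thinned to 1000 UMIs per cell, the 15 genes together gave 0 to 38 UMIs per member with a median of 10. The median was 4 in cells with a gate sum of 1, 1 in all other kept cells, 3 in Ly6c2-high monocytes, 2 in C1q-positive macrophages and 4 in neutrophils. The ranges overlapped, since single other cells reached 48 UMIs. Only 1 of 116 members was at 0, against 30.6% of the other cells.

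**Figure D2:**
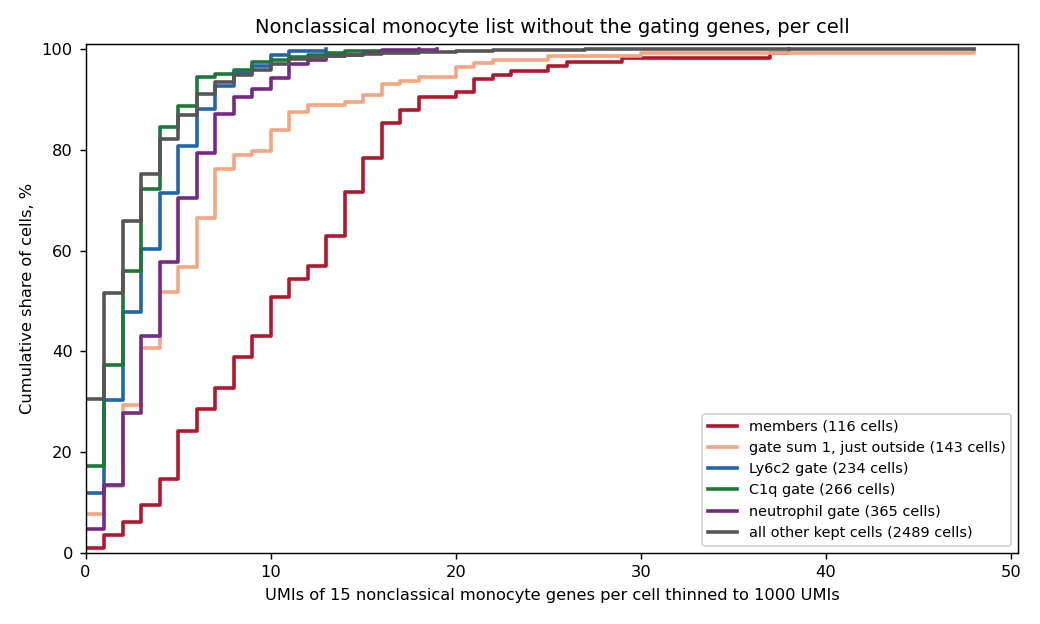
Summed UMIs per cell (horizontal axis) after thinning every cell to 1000 UMIs, for the 15 nonclassical monocyte genes without the gating genes, against the cumulative share of cells in each group (vertical axis, %). The members lie around a median of 10 UMIs and the other groups at medians of 1 to 4, with overlapping tails.

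The labels call the sorted cells macrophages, so 12 macrophage markers were read as well. The whole list summed to 434 CPM (360 to 518 CPM) in members, against 493 CPM in the other kept cells, 412 CPM in Ly6c2-high monocytes and 1998 CPM in C1q-positive macrophages, and 74 of 129 members had at least 1 UMI of it. Members thus lay near the other kept cells and the monocytes, and far under the C1q-positive cells. Of the 8 markers tested against all other kept cells, Mertk, Mrc1 and Vcam1 were called lower, none higher and 5 neither. Against the Ly6c2-high monocytes Vcam1, at 24.9 against 4.81 CPM, and Timd4, with 3 UMIs against 0, were called higher and none lower. Mertk, the tyrosine kinase receptor of tissue macrophages, and Cd5l, a secreted macrophage protein, had 0 UMIs in members. Vsig4, Marco, Folr2 and Lyve1 had 0 there too, but only 1 to 6 UMIs in all kept cells, too few to compare. Fcgr1 (ENSMUSG00000015947), which encodes the CD64 antigen used for the sort, had 9 UMIs in 9 members, or 32.0 CPM (14.6 to 60.8 CPM). It stood at 31.2 CPM in the other kept cells, 61.3 CPM in Ly6c2-high monocytes and 86.8 CPM in C1q-positive macrophages. After thinning, Fcgr1 was seen in 4.31% of members, 3.25% of the other kept cells and 0.822% of neutrophils, so at this depth the transcript of the sorted antigen did not set members apart from the rest.

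The 25 genes with the highest log2 ratio over the other kept cells mixed surface, metabolic and signalling functions. In order they were Fabp4, Krt80, Slc12a2, Apoc2, Ceacam1, Nxpe4, Itgal, Gngt2, Eno3, Nr4a1, Lrp1, Cebpb, Tlr7, Arhgef10l, Rras, Tmem51, Cd36, Tnfrsf1b, Spn, Slc11a1, Abi3, Ear2, Pou2f2, Cyp4f18 and Klra2. Ear2 and Klra2 belong to families of near-identical genes whose reads the counting could split, so their values are uncertain. Fabp4, a cytosolic fatty acid carrier, stood at 220 CPM (62 UMIs in 37 members) against 19.4 CPM, a ratio of 11.4 (8.33 to 15.3). Gngt2 stood at 2290.3 CPM against 351 CPM, a ratio of 6.52 (5.98 to 7.10), and had a UMI in 97.7% of members. Itgal stood at 782 CPM against 112 CPM, a ratio of 6.98 (6.00 to 8.10). None of these genes rested on a few cells: the 5 members with most UMIs of a gene held 30.6% of the Fabp4, 11.96% of the Gngt2 and 14.5% of the Itgal UMIs. Krt80 (146 against 11.7 CPM), a keratin, and Slc12a2 (121 against 8.62 CPM), the sodium-potassium-chloride cotransporter, had the largest plain ratios of the 25 at 12.5 (8.46 to 18.2) and 14.0 (9.03 to 21.4). Eno3, the muscle-type enolase, stood at 192 against 27.1 CPM. Rras (327 against 60.2 CPM), a small GTPase that acts on integrins, and Abi3 (306 against 64.1 CPM), an adaptor of the actin-nucleating WAVE complex, were also among the 25.

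**Figure D3:**
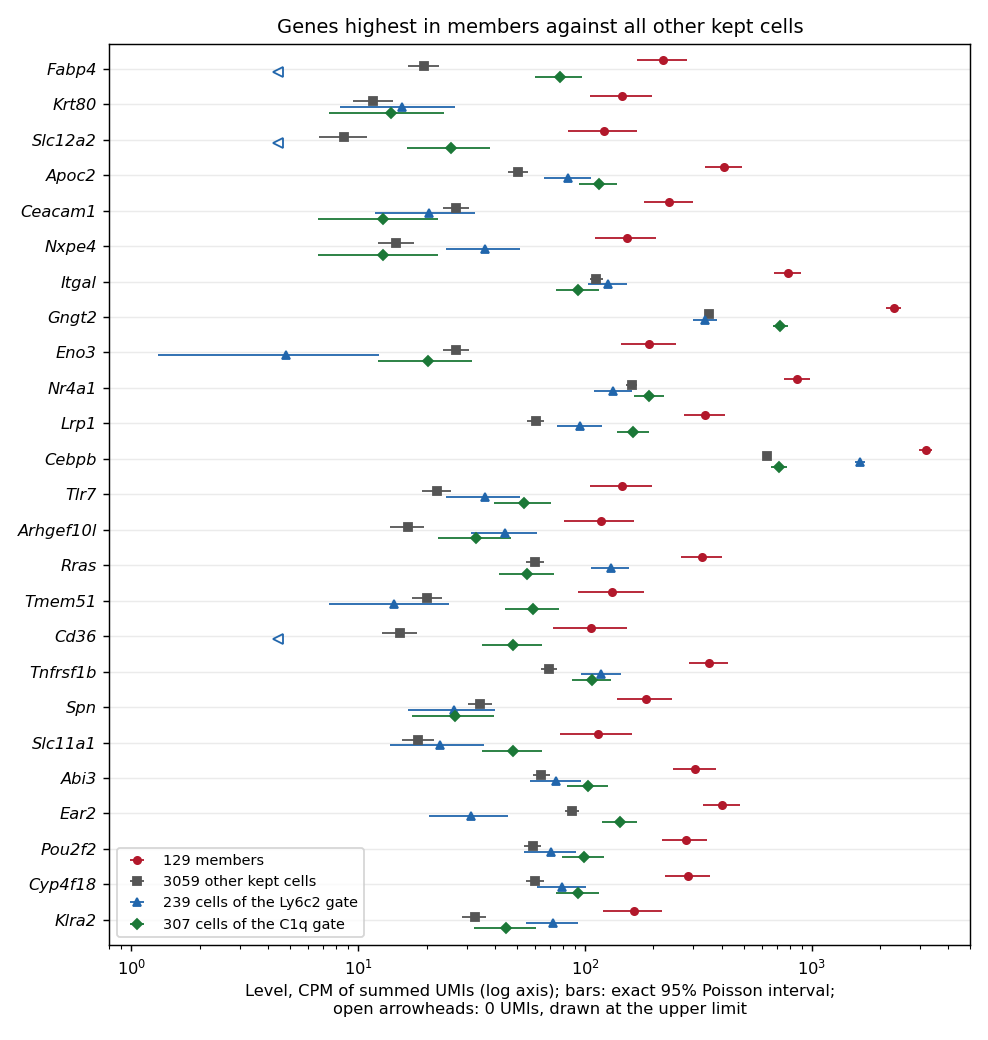
Levels in CPM (horizontal axis, log scale) of the 25 genes with the highest log2 ratio of members over all other kept cells, one gene per line, in members, other kept cells, the Ly6c2 gate and the C1q gate, with exact 95% Poisson intervals and open arrowheads at the upper limit for 0 UMIs. Members lie to the right for every gene shown; Cebpb comes closest in the Ly6c2 gate, at 1629 CPM against 3169 CPM.

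The 12 genes with the lowest log2 ratio were Gzma, Klrd1, Nkg7 and Ccl5 of cytotoxic lymphocytes, Ly6d and Ly6a, Cd209a of dendritic cells, Stmn1, Hist1h2ae, Hist1h2ap and Hmgn2 of dividing cells, and S100a10, the annexin A2 partner. Gzma had 1 UMI in the members (3.56 CPM) against 623 CPM in the other cells. Ccl5 stood at 356 against 1519 CPM, but 99% of its member UMIs lay in 5 cells. S100a10 had UMIs in 26.4% of members and stood at 235 against 653 CPM, a ratio of 0.360 (0.278 to 0.458). Reads of the near-identical Hist1h2ae and Hist1h2ap copies can be split by the counting, so their levels are uncertain.

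Genes were next read by role, and each count of genes called against all other kept cells stands beside the 2.91% higher and 5.11% lower of all genes tested. Among 19 transcription factors of myeloid cells, 10 were called higher in members and none lower, with a median log2 ratio of 1.02. Cebpb (ENSMUSG00000056501) stood at 3169 CPM (2964 to 3384 CPM) against 636 CPM, a ratio of 4.98 (4.64 to 5.35), and had a UMI in 124 of 129 members. Nr4a1 (ENSMUSG00000023034) stood at 861 CPM against 161 CPM, a ratio of 5.36 (4.65 to 6.15), with UMIs in 103 members. Both were also frequent at equal depth, since after thinning Cebpb was seen in 87.1% of members and 32.8% of the other cells, and Nr4a1 in 55.2% and 14.0%. Pou2f2, which encodes OCT2, stood at 277 against 58.6 CPM and Klf4 at 398 against 136 CPM. Klf2, a zinc-finger factor induced by blood flow in endothelium, stood at 1074 against 459 CPM, a ratio of 2.34 (2.07 to 2.63). Spi1, the gene of PU.1, stood at 899.8 against 419 CPM. The remaining called genes were Irf5, Tcf7l2, Bcl6 and Hes1, a target of Notch signalling that stood at 146 against 36.7 CPM. Factors tied to other myeloid fates did not pass the threshold: Irf8 stood at 185 against 181 CPM, Cebpa at 28.5 against 54.4 CPM and Maf at 21.3 against 31.8 CPM.

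Since C/EBPβ, NR4A1 and PU.1 bind known DNA motifs and their genes were among those called higher, RefSeq promoter windows of GRCm38.p6 (250 bases before to 50 after the start site) were searched for them on both strands. The letters were TTGCNNAA for C/EBP, AAAGGTCA for NR4A and GAGGAAGT for PU.1. Of the 25 named genes, 18 matched an entry, with 21 windows in all. The C/EBP letters were in 5 windows (23.8%), 1 of Ear2, 1 of Klra2 and 3 of Rras, of which windows a pair overlap and share a match, and in 10.8% of 32851 windows of all genes. The NR4A and PU.1 letters were in 0 of the 21 windows, and in 1.51% and 3.20% of all windows. Among the windows with a match were those of Ear2 on the plus strand at chr14:44102404-44102703, of Klra2 on the minus strand at chr6:131247313-131247612, and of the gating gene Adgre4 on the plus strand at chr17:55749734-55750033. Each is written 5′ to 3′ on the strand of the gene, and capitals mark the matched letters. The windows of the other gating genes, 2 of Ace and 1 of Treml4, held none of the 3 motifs. The first match in the Adgre4 window is C/EBP and the last PU.1, both on the opposite strand and without overlap. The match in the Klra2 window is on the opposite strand and that in the Ear2 window on the strand of the gene.
Ear2: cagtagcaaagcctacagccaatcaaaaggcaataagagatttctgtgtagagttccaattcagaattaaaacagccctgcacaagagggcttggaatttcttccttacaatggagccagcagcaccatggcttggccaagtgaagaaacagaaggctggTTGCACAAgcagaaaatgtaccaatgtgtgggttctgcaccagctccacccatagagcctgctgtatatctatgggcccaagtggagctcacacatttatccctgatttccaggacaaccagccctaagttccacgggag
Klra2: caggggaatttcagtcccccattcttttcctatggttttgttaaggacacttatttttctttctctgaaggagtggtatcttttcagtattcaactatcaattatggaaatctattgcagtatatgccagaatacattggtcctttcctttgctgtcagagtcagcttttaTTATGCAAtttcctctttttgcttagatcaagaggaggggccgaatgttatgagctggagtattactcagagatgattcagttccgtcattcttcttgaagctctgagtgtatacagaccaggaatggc
Adgre4: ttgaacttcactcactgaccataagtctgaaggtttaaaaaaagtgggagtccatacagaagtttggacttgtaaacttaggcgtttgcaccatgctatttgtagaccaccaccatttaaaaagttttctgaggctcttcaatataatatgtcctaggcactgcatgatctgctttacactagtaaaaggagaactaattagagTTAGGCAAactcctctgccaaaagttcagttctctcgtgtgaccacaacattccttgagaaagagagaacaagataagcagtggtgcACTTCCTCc
These matches describe letters in the windows and do not show binding. Ear2 stood at 402 CPM in members against 87.5 CPM, and Klra2 at 164 against 32.5 CPM.

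Of the genes of adhesion and crawling, 9 of 20 were called higher and 1 lower, with a median log2 ratio of 0.80. The 9 were Itgal, Itgam, Itgb2, Itga4, Itgb1, Spn, Cd44, Myo1g and Rap1b. Itgb2, the beta chain that pairs with Itgal in LFA-1 and with Itgam in Mac-1, stood at 363 against 163 CPM, a ratio of 2.22 (1.80 to 2.72). Itgam stood at 220.5 against 93.7 CPM and Itga4, the alpha chain of VLA-4, at 235 against 86.2 CPM. Both chains of LFA-1 were thus above the other cells by more than counting error. Spn, which encodes CD43, the sialophorin used to gate nonclassical monocytes in flow cytometry, stood at 185 against 34.5 CPM. Rap1b, a GTPase that activates integrins, stood at 629 against 225 CPM. Icam2 was the gene called lower, with 1 UMI in members against 18.7 CPM.

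Of 15 chemoattractant receptors only Cx3cr1 and S1pr5 were called higher, and 5 were called lower, among them Ccr1, Ccr7, Cxcr2 and S1pr1. Cx3cr1, the fractalkine receptor, stood at 345 CPM (280 to 421 CPM) against 93.7 CPM, a ratio of 3.68 (2.95 to 4.55). It had a UMI in 42.6% of members, and in 27.6% after thinning against 8.80% of the other cells. S1pr5, a sphingosine phosphate receptor of cells that leave tissue for blood, rested on 11 UMIs in 11 members, at 39.1 against 6.68 CPM. S1pr1, the receptor with which T cells leave the thymus, had 0 UMIs in members. Ccr2, the receptor that draws classical monocytes out of the marrow, did not pass, at 178 against 243 CPM. Of 14 genes of growth factor receptors and survival 3 were called higher and 1 lower. Tnfrsf1b, a TNF receptor, stood at 352 against 69.3 CPM and had the highest log2 ratio of the list. Csf1r, the receptor for the survival factor CSF1, stood at 612 against 144 CPM, a ratio of 4.26 (3.60 to 4.997), and Cd274, the gene of PD-L1, at 139 against 45.9 CPM. Flt3 of dendritic cells was the gene called lower.

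Among Fc receptors and their kinases, 3 of 10 genes were called higher. Fcgr4, the activating IgG receptor typical of nonclassical monocytes, stood at 99.6 CPM (28 UMIs) against 20.03 CPM, a ratio of 4.97 (3.20 to 7.45). Neutrophils carried it as well: it was seen in 10.3% of thinned members and 7.95% of thinned neutrophils. The Src-family kinase Lyn, at 501 against 181 CPM, was also among them. The inhibitory Fcgr2b, at 132 against 116 CPM, and Fcgr3, at 103 against 70.1 CPM, did not pass. The shared gamma chain Fcer1g, at 4303 against 2154 CPM, had a ratio of 1.998 (1.88 to 2.12), just under the threshold once 10 CPM were added, and it had a UMI in 128 members.

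Paired receptors of the CD300 and related families gave 6 genes higher of 15 and none lower. Cd300e, an activating receptor of monocytes, stood at 99.6 against 4.49 CPM, a ratio of 22.2 (13.1 to 37.2). Cd300a stood at 313 against 105 CPM, Cd300c2 at 533 against 157 CPM, Cd300ld at 99.6 against 16.8 CPM and Clec12a at 274 against 131 CPM, while Lilra5 rested on 5 UMIs. Among receptors of nucleic acids in endosomes, Tlr7, which senses single-stranded RNA, stood at 146 against 22.2 CPM, a ratio of 6.56 (4.56 to 9.25), and Tlr13 at 74.7 against 18.3 CPM. Tlr9 had 0 UMIs in members and only 15 in all kept cells, and was not called. The shared adaptor Myd88 stood at 139 against 50.3 CPM. Tlr7, Tlr13, Myd88, Clec4a1, Clec4a3 and Nod2 made up the 6 of 18 pattern recognition genes called higher. Clec4n was called lower at 10.7 against 48.8 CPM, and Cd14 did not pass at 71.1 against 58.2 CPM.

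Lipid transport genes gave 8 higher of 16 and 1 lower, with a median log2 ratio of 1.003. Apoc2 (ENSMUSG00000002992), the cofactor of lipoprotein lipase, stood at 409 against 50.6 CPM, a ratio of 8.08 (6.51 to 9.95). Cd36, a receptor of fatty acids and oxidised lipoproteins, stood at 107 against 15.3 CPM. Scarb1, a receptor of high-density lipoprotein, stood at 78.2 against 21.5 CPM. Pltp, Plin2 and Nr1h3, the gene of the sterol sensor LXRα, were also called higher. Abca1, the cholesterol exporter, was the gene called lower. Apoe did not differ beyond counting error from the average of the other cells, at 1977 (1816 to 2149 CPM) against 1957 CPM. That average hides a difference in how many cells carried it. After thinning, 50 of 116 members had no Apoe UMI, against 1817 of 2489 other kept cells and 157 of 234 Ly6c2-high monocytes. Apoe and Apoc1 were called higher in members than in the Ly6c2-high monocytes, and lower than in the C1q-positive macrophages.

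For uptake of dying cells 3 of 12 genes were called higher and 2 lower. Lrp1, a large endocytic receptor, stood at 338 against 60.5 CPM, a ratio of 5.59 (4.44 to 6.97), and Itgav at 92.5 against 21.4 CPM; Cd36 was the third. Mertk with 0 UMIs and Mfge8 with 1 UMI made up the lower pair. Of 12 iron and haem genes 2 were called higher and 2 lower. Slc11a1, the divalent metal transporter NRAMP1 of phagosomes, stood at 114 against 18.3 CPM and Nr1h3 was the other higher gene, while the iron exporter Slc40a1 and the transferrin receptor Tfrc were called lower. Of 18 lysosomal genes Ctsa and Ctsb were higher and Ctsd lower, with Ctsb at 949.5 against 389 CPM.

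**Figure D4:**
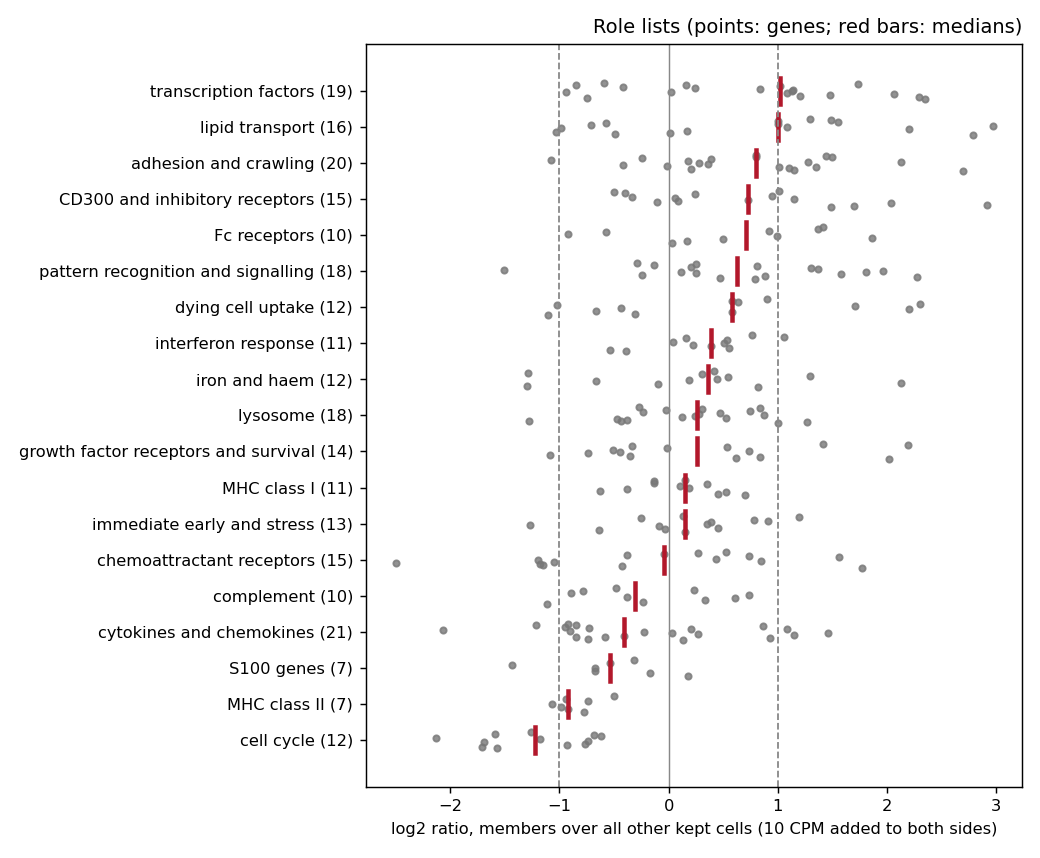
Log2 ratio of members over all other kept cells, 10 CPM added (horizontal axis), for the genes of each role list (points), with the list median as a bar and dashed lines at the threshold of 1 in size. Transcription factors and lipid transport have medians of 1.02 and 1.003, and cell cycle genes lie lowest with a median of -1.22.

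Summed transcripts of the MHC class II presentation genes were lower in members than in the average of the other cells. The 7 genes together stood at 14627 CPM in members and 27048 CPM in the other kept cells, with a median log2 ratio of -0.93, but only H2-Eb1 passed the threshold, at 2475 against 5190.5 CPM. Cd74, the invariant chain, stood at 7301 against 12502 CPM, a ratio of 0.584 (0.559 to 0.610). After thinning, 27 of 116 members (23.3%) had no UMI of the 7 genes, the median was 2, and 24 members had 20 or more, up to 122. In the other kept cells 25.7% had none, the median was 13 and 1136 of 2489 had 20 or more. In the Ly6c2-high monocytes described below 29.1% had none, the median was 1 and 44 of 234 had 20 or more, so a wide spread between cells was also seen outside the members. None of 11 MHC class I genes was called in either direction, with B2m at 2713 against 1661 CPM, a ratio of 1.63 (1.52 to 1.76).

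Of the lists of interferon response, stress and complement 1 or 2 genes were called, and of cytokines 5 genes, beside the 2.91% higher and 5.11% lower of all genes. Of 11 interferon genes 1 was called higher, Ifi204 at 135 against 59.9 CPM, and Isg15 did not pass at 309 against 409 CPM. Of 21 cytokine and chemokine genes Tgfb1 (494 against 217 CPM), Il17ra and Ccl6 were higher and Ccl5 and Cxcl16 lower. Il1b had UMIs in 81 members and stood at 957 against 496 CPM, under the threshold. Fos, a gene that tissue dissociation induces, stood at 1398 against 1259.8 CPM, and 1 of 13 immediate early and stress genes was called in each direction, Hspa1b higher and Egr1 lower. Of 10 complement genes Cfp, which encodes properdin, was lower at 49.8 against 119 CPM. Cell division was low: 7 of 12 cell cycle genes were called lower and none higher, and together they stood at 416 CPM against 1268 CPM.

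The nearest comparison within the monocytes was with 239 Ly6c2-high cells (median 2814 UMIs), which had at least 2 Ly6c2 UMIs, a UMI of Csf1r, F13a1 or Fn1, and none of the 3 gating genes. After thinning, 16 of 234 of these cells had at least 20 UMIs of S100a8 and S100a9, as did 10 of 116 members. Their part in this comparison was not tested for the Ly6c2 gate. Of 11704 genes tested, 4.50% were called higher in members and 3.73% lower. Fabp4, Slc12a2 and Cd36 had 0 UMIs in the Ly6c2 gate. With 3 counts as the floor of that gate, Fabp4 was at least 61.1-fold higher in members, Slc12a2 at least 33.5-fold and Cd36 at least 29.6-fold. Eno3 stood at 192 against 4.81 CPM, Ear2 at 402 against 31.3 CPM, Ceacam1 at 235 against 20.4 CPM, Hes1 at 146 against 10.8 CPM and Dusp5, a phosphatase of nuclear ERK, at 188 against 18.0 CPM. Gngt2 and Krt80 completed the 10 highest. The nonclassical list gave 14 of 15 genes higher against these cells too. Here Cebpb was the exception, at 3169 against 1629 CPM, a ratio of 1.95 (1.79 to 2.12), while Nr4a1 stood at 861 against 133 CPM, a ratio of 6.45 (5.13 to 8.15). Adhesion genes gave 11 of 20 higher and none lower, with Pecam1 and Cd9 in addition to the 9 above. Tcf7l2 stood at 67.6 CPM against 1.20 CPM, where it rested on a single UMI, a ratio of 56.2 (8.94 to 2336). Csf1r, a gene of the Ly6c2 gate, is left out.

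The 10 genes with the lowest log2 ratio to the Ly6c2 gate were Cenpa, Hist1h2ae, Hist1h2ap, H2afx, Stmn1, Pclaf, Birc5, Hmgb2, Dut and S100a10. Cell cycle genes gave 10 of 12 lower and none higher. In the Ly6c2 gate only 130 of 239 cells lacked a UMI of the listed cell cycle genes. A comparison with those 130 was added after the data had been seen. In it the log2 ratio of Hist1h2ap was 2.38 instead of -2.60 and that of Hmgb2 0.28 instead of -1.93. Stmn1 and Birc5 are listed genes and at 0 in the 130 by construction. Members were not filtered in this way and held 117 UMIs of the listed genes. The comparison therefore cannot tell whether members differ in Hist1h2ap or Hmgb2 from Ly6c2-high cells that do not divide. S100a10 stood at 235 against 1428 CPM in the whole gate, a ratio of 0.164 (0.126 to 0.211). Of the 7 classical monocyte markers that the Ly6c2 gate did not use, 2 were called lower, 5 neither and none higher, with a median log2 ratio of -0.58. Those lower were Ccr2, at 178 against 578 CPM, a ratio of 0.308 (0.225 to 0.412), and Vcan, a proteoglycan of the matrix, at 10.7 against 49.3 CPM. Against all other kept cells the 10 classical markers had a median log2 ratio of -0.21. Their summed level was 4790 against 3211 CPM, of which Plac8 alone made up 3140 and 1169 CPM. Only Plac8 was called higher and none lower, so the higher sum rests on that gene. MHC class II genes were not called in either direction, with Cd74 at 7301 against 5387 CPM.

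Against 307 C1q-positive cells (C1q sum of at least 3, gate sum under 2, no Cd3 UMI, median 2557 UMIs), 2.96% of 11711 genes were called higher in members and 7.20% lower. The 10 highest were Ceacam1, Retnlg, Itgal, Nxpe4, Eno3, Krt80, Pglyrp1, Spn, Stap1 and Rras. Ceacam1, an inhibitory adhesion molecule, stood at 235 against 12.9 CPM, a ratio of 18.3 (9.79 to 37.1). Spn stood at 185 against 26.8 CPM. Retnlg is a neutrophil gene, and 96.5% of its member UMIs lay in 5 cells; without the 10 members with many S100a8 and S100a9 UMIs its log2 ratio turned from 3.004 to -0.79. Lower were Ccl12, Vcam1, Gzma, Igf1, Slc40a1, Rgs1, Ctsd, Egr1, Apoc1 and Cd81. Gzma is a gene of cytotoxic lymphocytes, and the NK and ILC markers together stood at 99.6 CPM in members and 501 CPM in the C1q gate. The source of these UMIs in the C1q gate was not tested. Vcam1, the ligand of VLA-4, stood at 24.9 against 794 CPM. Apoe stood at 1977 against 11015 CPM, a ratio of 0.180 (0.165 to 0.196), and Ctsd, the lysosomal protease cathepsin D, at 92.5 against 857 CPM. In the lists, 7 of 8 macrophage markers, 5 of 7 MHC class II genes, 6 of 18 lysosomal and 6 of 10 complement genes were lower. Maf, a factor of macrophage identity, was among 4 transcription factors called lower, while Nr4a1, Cebpb, Pou2f2, Spi1, Irf5 and Bcl6 were higher. Cx3cr1 was not called, at 345 against 207 CPM.

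The members were not uniform. Leiden clustering of the kept cells on 2000 variable genes without the gating genes gave 21 clusters, and members fell into 14 of them. A cluster of 177 cells held 88 members, 68.2% (59.4% to 76.1%), and members were 49.7% of it. Its leading genes were Apoc2, Cd300e, Fabp4, Slc12a2, Eno3, Itgal, Krt80, Ceacam1, Gngt2 and Arhgef10l, of which 5 are on the nonclassical list, so it is called nonclassical monocyte-like. A second cluster of 297 cells, led by F13a1, Sirpb1c, Lyz2 and Fn1, held 20 members (15.5%). The other 21 members were spread over 12 clusters, at most 4 in each. Summed UMIs were 150025 in the 88 members of the first cluster and 131163 in the 41 members outside it. The CPM levels of members are sums of UMIs and therefore draw on both sets. The share of cells in the nonclassical monocyte-like cluster was 25.3% at a gate sum of 1, 60.3% at 2, 67.3% at 3 or 4 and 90.9% at 5 or more. Per 1000 UMIs the nonclassical list had a median of 14 UMIs in the 75 thinned members of that cluster and 6.5 in the 20 of the second. Since these genes entered the clustering, the values are descriptions.

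**Figure D5:**
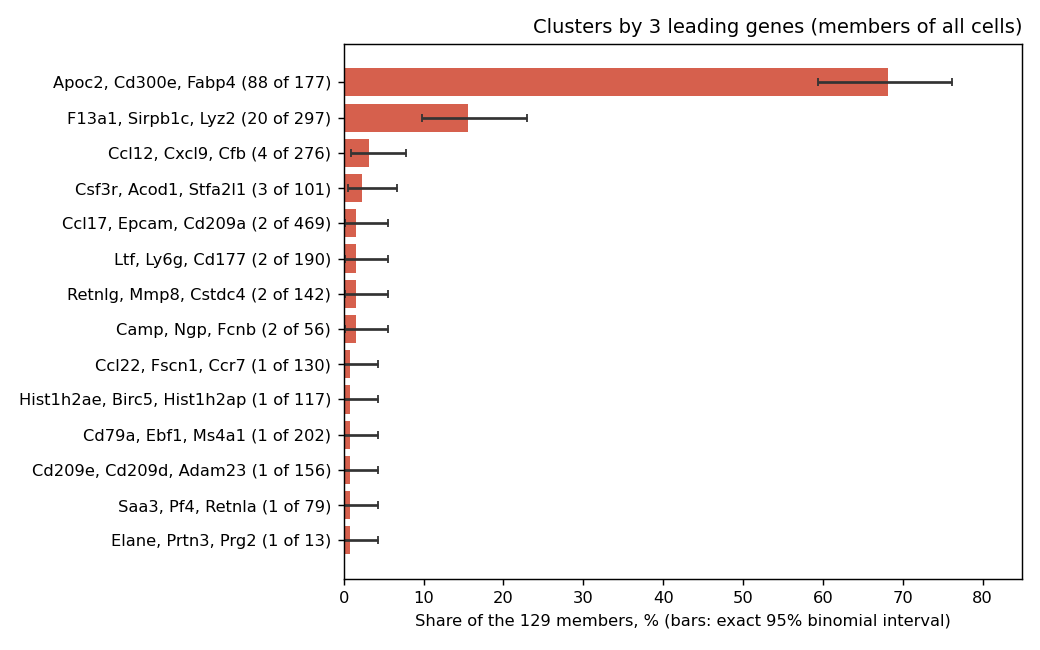
Share of the members in each cluster that held at least 1 of them (horizontal axis, %, with exact 95% binomial intervals), for clusters made without the gating genes, each named by its 3 leading genes and by its number of members of all its cells. The cluster led by Apoc2, Cd300e and Fabp4 holds 88 of 129 members and that led by F13a1, Sirpb1c and Lyz2 holds 20.

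Ly6c2, which the gate did not use, split the members further. It was at 0 UMIs in 102 members (median 1668.5 UMIs) and present in 27 (median 2487 UMIs). Of the 102, 78.4% lay in the nonclassical monocyte-like cluster, and of the 27, 29.6%. Nr4a1 stood at 999 CPM (861 to 1152 CPM) in members without Ly6c2 and 577 CPM (432 to 754 CPM) in those with it. Spn stood at 238 and 76.2 CPM, Fabp4 at 285 and 87.0 CPM, and Cebpb at 3630 and 2219 CPM. Nr4a1, Spn and Cebpb of the nonclassical list, and Fabp4, which is not on it, were thus lower in the members with Ly6c2 UMIs. The other genes of the list are not given for this split. Ccr2 stood at 174 and 185 CPM, within counting error of each other. Over all members Ly6c2 stood at 292 CPM against 591 CPM in the other kept cells. The 10 members rich in S100a8 and S100a9, described below, had a higher Ly6c2 level than all members together and lower Cebpb and Nr4a1 levels. How far they set the levels of the 27 was not tested.

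Markers of other cell types were counted in each member. The classical monocyte list includes Plac8, its only gene called higher against all other kept cells, so its count does not mark classical cells. At least 3 UMIs of the classical monocyte markers were seen in 96 of 129 members, of the neutrophil markers in 26, of the plasmacytoid dendritic cell markers in 11, of the conventional dendritic cell and of the macrophage markers in 8 each, of the NK and ILC markers in 4, and of the B and of the T lineage markers in 1 each. At least 20 UMIs of S100a8 and S100a9 were seen in 10 members (median 3349 UMIs), none of them in the nonclassical monocyte-like cluster, and the 10 highest members held 98.9% of all UMIs of the 10 neutrophil markers. The 5 highest members held 79.7% of the S100a8 UMIs. In these 10 members Cebpb stood at 1590 CPM, Nr4a1 at 561 CPM, Itgal at 514 CPM and Ly6c2 at 842 CPM. Their part in the results was not tested beyond leaving them out, which left every one of the 25 genes called higher. Basophil and mast cell, platelet and endothelial markers had 0 UMIs in all 129 members, with an upper exact bound of 13.1 CPM for each list. Scrublet, a doublet caller, called 3 of 3188 cells and none of the members, too few calls to be used. Of the members, 8 (6.20%) were among the 202 cells with the highest doublet scores, a share close to the 6.34% of all kept cells.

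Variation between members differed widely between genes. Over 550 genes in the 116 thinned members, the Fano factor, the variance of UMIs per cell over their mean, had a median of 1.16, close to the value of 1 that counting error alone gives. In order, the 8 highest values were 123 for S100a8, 91.0 for S100a9, 19.8 for Camp, 18.1 for Cd74, 17.8 for Ngp, 11.6 for Lcn2, 9.77 for Actb and 9.59 for H2-Eb1. S100a8 and S100a9 encode cytosolic calcium-binding proteins of neutrophils, and Camp, Ngp and Lcn2 neutrophil granule proteins. Cd74 and H2-Eb1 belong to MHC class II presentation, and Actb encodes beta-actin. By gating pattern, the nonclassical monocyte-like cluster held 57.1% of the 14 members with Ace alone, 53.8% of the 13 with Adgre4 alone and 71.0% of the 100 with more than 1 gating gene. Nr4a1 stood at 869.5, 921 and 862 CPM in the same order. Members with 1 or 2 C1q UMIs had Nr4a1 at 901 CPM and Cebpb at 2820.3 CPM.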

How the data were processed

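Cells of the mouse thymus sorted on CD64 were profiled in 2 libraries with the 10x Genomics 3′ chemistry, per the labels' protocols. The values are UMI counts for each gene in each barcode, deposited unnormalized and made with Cell Ranger 6.0.0 (2021) and 8.0.0 (2024), per the file headers, on mm10, per the submitters' processing notes. The chemistry reads the 3′ end only, free RNA can enter any droplet, and the counting of intronic reads is not given in the sources used here. The 2024 counts were read without gene names and give depth only.

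The members and gene lists were chosen with earlier results of these data known. Kept cells and members followed the thresholds given in the report, and the gating genes were left out of all comparisons. UMIs were summed per group and scaled to CPM. With 1 library there is no test: ratios carry exact conditional binomial intervals, levels exact Poisson and shares exact Clopper-Pearson intervals, all at the 95% level and for counting error only. Comparison groups were all other kept cells, a Ly6c2 gate (at least 2 Ly6c2 UMIs and at least 1 of Csf1r, F13a1 or Fn1, no gating, Siglech, Ncr1, Cd79a or Cd3 UMI, C1q sum under 3) and a C1q gate. A neutrophil gate of non-members (at least 20 UMIs of S100a8 and S100a9, C1q sum under 3, no Cd3 UMI) served as background. Genes of each comparison gate were left out of its results.

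Named genes were the 25 with the highest log2 ratio over all other kept cells (at least 10 UMIs and 100 CPM in members), the 12 with the lowest (at least 200 CPM in the other cells), and the 10 highest and 10 lowest against each gate by the same minima, without genes of ribosomal proteins, mitochondria, immunoglobulin or T cell receptor segments and unnamed models. Genes of the lists are named as examples. Some list genes are not reported here. Clec7a and Mx1 had no entry in the gene list used. For shares, cells were thinned without replacement to 1000 UMIs. Clusters used scanpy 1.11.5 and igraph 0.11.9 (2000 variable genes, 30 principal components, 15 neighbours, resolution 1), Scrublet an expected rate of 6%, and calculations scipy 1.17.1 under Python 3.11.15, with pandas 2.3.3 and numpy 2.4.6. No doublets were removed. The ratios were tested on simulated data with known fold changes. Alternatives changed the gate, the filters on cells, the scaling, the added CPM, the minimum of UMIs and the members left out.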

Additional observations from a re-analysis of the deposited data

How the results depend on the processing

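No paired analysis was possible because gene names were used for 1 library only. The limits are those of 1 library: leaving out a replicate could not be run, and counts of called genes changed with the gate and with the added CPM, as given next. Of 1289 values of named genes under alternatives, 161 moved by more than their counting interval and 10 changed sign.

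A gate sum of at least 1 gave 283 members, and 189 genes higher and 309 lower than all other kept cells (341 and 598 in the report), 279 and 178 against the Ly6c2 gate (527 and 436), and 199 and 480 against the C1q gate (347 and 843). A gate sum of at least 3 gave 71 members. The gate on thinned counts gave 70 members, with 780 and 1074, 1095 and 950, and 663 and 1484 genes in the same order. With 1 CPM added the counts were 911 and 3344, 1893 and 2397, and 1073 and 3231, and with 50 CPM 111 and 78, 95 and 47, and 97 and 135. The share of higher calls against all other kept cells was 36.3% in the report, 21.4% with 1 CPM and 58.7% with 50 CPM added. Against the Ly6c2 gate it was 54.7%, 44.1% with 1 CPM, 66.9% with 50 CPM and 42.1% with scaling by the median of ratios, and against the C1q gate 29.2% and, with 50 CPM, 41.8%. The mean of each cell's CPM gave 963 genes lower than all other kept cells. The cause of these differences was not tested.

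Alternatives added after seeing the data follow. Only the members of the nonclassical monocyte-like cluster gave 697 and 1118, 901 and 850, and 599 and 1318 genes. Without Ly6c2-gate cells with a cell cycle UMI, the log2 ratio turned to 1.81 for Hist1h2ae, 2.38 for Hist1h2ap, 0.83 for H2afx, 3.31 for Stmn1, 2.96 for Pclaf, 2.58 for Birc5, 0.28 for Hmgb2 and 1.47 for Dut, by the construction of that alternative for listed genes. In the comparison without these Ly6c2-gate cells, members kept their own cells with a cell cycle UMI. The signs of the genes not listed therefore do not compare non-dividing cells on both sides. Retnlg against the C1q gate turned to -0.79 without members rich in S100a8 and S100a9 and to -0.38 for the nonclassical monocyte-like cluster alone.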

Other observations

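Cells that met the Ace, Treml4 and Adgre4 threshold and lacked Cd3 UMIs, but had a C1q sum of at least 3, were left out of the members. There were 44, with a median of 3028.5 UMIs and a median C1q sum of 23.5 UMIs. Cebpb stood at 1607 CPM (1429 to 1801 CPM), Nr4a1 at 489 CPM (393 to 601 CPM), Itgal at 293 CPM and Gngt2 at 1184 CPM, each under the members' level and above that of the C1q gate. Apoe stood at 11299 CPM, close to the 11015 CPM of the C1q gate, and Mertk at 125 CPM, where the members had 0 UMIs. Of the 44, 7 lay in the nonclassical monocyte-like cluster. How many of them are doublets was not tested.

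The nonclassical monocyte-like cluster also held 89 cells that were not members, with a median of 1496 UMIs. Of these, 37 had a gate sum of 0, 43 a sum of 1 and 9 a sum of at least 2. Cebpb stood at 3245 CPM, Nr4a1 at 878 CPM, Itgal at 759 CPM and Cd300e at 107 CPM in them, against 4293, 1180, 1126 and 167 CPM in the members of the cluster, so the count of 129 is that of the gate and not of all cells with such a profile.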
